A study of Mus musculus with 50 samples.

Results

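The liver RNA of male mice from a backcross (50 libraries) was compared between animals with low and with high animal numbers, the number after the letter I in each library title. Animal numbers below 200 formed the low-numbered group (22 libraries, mice I114 to I198) and numbers of 200 or above the high-numbered group (28 libraries, mice I215 to I296), so that all 50 libraries of the series were members. The cross segregated chromosomes 4 and 6 of strain A/J against a background of strain C57BL/6J (the chromosome substitution strains B6.A4 and B6.A6, each first crossed to C57BL/6J, and their offspring intercrossed), and its purpose was to map loci for blood, metabolic and expression traits. Every mouse in both groups was male, of this 1 cross and without a treatment that the labels name, and could carry A/J segments on a single copy of each of these chromosomes. The labels call the mice adult, whereas the study's methods describe young mice, some weeks after weaning and fasted overnight. Genotypes were not used here, and each group mixed genotypes. The labels do not state what the animal number stands for (birth order, litter, cage or day of collection), and it was used only as a number.

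Libraries were poly(A)-selected and stranded, and held between 9430126 and 24355042 reads counted on genes (median 10744076.5 in the low-numbered and 10856823.5 in the high-numbered group). Library numbers 1 to 30 and 31 to 59 formed 2 sets, and each set held both groups (10 low- and 18 high-numbered libraries in the first, 12 and 10 in the second). Within each set the library number followed the animal number (Spearman's rho 0.9990 over 28 and 1.0000 over 22 libraries), so that libraries 1 to 12 and 31 to 44 were low-numbered and 13 to 30 and 45 to 59 high-numbered. The animal number and the order of the libraries within a set therefore cannot be told apart. The share of reads that could not be placed uniquely, relative to the reads counted on genes, had a median of 16.9% in the low-numbered and 13.8% in the high-numbered libraries, and the share of all reads on genes that fell on the 10 highest genes (albumin among them) had medians of 20.4% and 21.8%. An animal number stood on 2 libraries in 2 cases (I191 and I248). Correlations between libraries were taken over all genes, with each gene's general level removed. The paired libraries correlated at 0.107 and -0.118, against a median of -0.031 over the 1225 pairs of libraries. All 4 were kept. The libraries also outnumber the mice that the methods give for gene expression, so that some may share a mouse, and which these would be is not given in the sources used here.

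In rodents, the liver differs between the sexes in much of its metabolic equipment. Growth hormone, released in pulses in males and more evenly in females, acts through its receptor and the transcription factor STAT5 on hepatocytes, and the male pattern of liver genes develops around puberty. Many of these genes encode enzymes of drug and steroid metabolism: cytochrome P450s and flavin monooxygenases, which oxidize their substrates, and transferases, which attach glucuronic acid, sulfate or glutathione. Major urinary proteins (MUPs), pheromone carriers that male mouse liver secretes in bulk, belong to the same system.

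To ask which genes differed between low and high animal numbers, the 11431 genes with a mean of at least 1 normalized CPM (reads per fixed library size, scaled between libraries) were compared on log2(value + 0.5), with the library set as covariate. In all, 2066 genes passed an adjusted p of 0.05 (18.1% of the genes tested), of which 1062 (9.29%) were higher and 1004 (8.78%) lower in the high-numbered mice. These shares are the background for every list below, and all levels are in normalized CPM. Most differences were small. The median size over the genes that passed was 0.23 on the log2 scale, 181 genes differed by 0.5 or more, and 21 differed by 1 or more, of which 8 were higher and 13 lower. The 2 groups overlapped for all 11431 genes. With the library's position within its set as a further covariate, 1 gene passed (Stat5a, a growth hormone signal transducer), the differences shrank to a median of 0.62 of their size and the standard errors grew 1.88 times. When the share of the 10 highest genes was a covariate (the top-share fit), 240 genes passed.

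The 2 library sets share no library, and gave separate estimates. Of the 1547 genes that passed in libraries 1 to 30 (13.5%, with 6.78% higher and 6.75% lower), 1163 (75.2%) had the same sign in libraries 31 to 59 and 101 (6.53%) also passed there. Of the 330 genes that passed in libraries 31 to 59 (2.89%, with 1.48% higher and 1.41% lower), 292 (88.5%) had the same sign in libraries 1 to 30 and 101 (30.6%) passed there too. Over all genes, 58.8% had the same sign in both sets. The difference itself differed between the sets for 33 genes (limma interaction, 0.289%), more positive in libraries 31 to 59 for 32 (0.28%) and less positive for 1 (0.00875%).

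The animal numbers fell into 4 runs with gaps between them: I114 to I133 (9 libraries), I174 to I198 (13), I215 to I261 (22) and I274 to I296 (6). Between the second and the third run, on either side of the border at 200, 458 genes passed (4.01%), 251 (2.2%) higher and 207 (1.81%) lower. Neither the first pair of runs nor the last pair differed in any gene after adjustment in limma (0 genes in each, with 354 and 663 genes at an unadjusted p under 0.05). The runs differ in size, and the median standard error was 0.093, 0.076 and 0.098 from the first to the last contrast.

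Ugt1a9, Pgd, Slc22a30 and Aox3 served as markers of the comparison, chosen with earlier results known. Ugt1a9 (ENSMUSG00000090175, chromosome 1 of GRCm38 from 88070800 to 88218997) encodes a UDP-glucuronosyltransferase, which attaches glucuronic acid to drugs and other small molecules for excretion. Its normalized CPM lay between 33.9 and 69.0 with a median of 46.1 in the low-numbered libraries and between 46.1 and 89.4 with a median of 62.7 in the high-numbered libraries. The groups overlapped, but 27 of the 28 high-numbered libraries were above the median of the low-numbered ones and 12 were above the highest (log2 difference 0.52 ± 0.071 (SE), adjusted p = 3.01e-06). The difference was 0.55 in libraries 1 to 30 and 0.48 in libraries 31 to 59.

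Pgd (ENSMUSG00000028961, chromosome 4, 149149991 to 149166771) encodes 6-phosphogluconate dehydrogenase of the pentose phosphate pathway, which makes NADPH. Its values ran between 9.58 and 15.1 with a median of 12.8 in the low-numbered libraries and between 13.1 and 21 with a median of 15.8 in the high-numbered libraries. All 28 high-numbered libraries exceeded the low-numbered median and 19 exceeded the low-numbered maximum (log2 difference 0.32 ± 0.046 (SE), adjusted p = 8.59e-06). The medians of the 4 runs, in order of animal number, were 12, 13.3, 15.3 and 16.5. Pgd lies on chromosome 4, a chromosome that segregated in the cross.

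Slc22a30 (ENSMUSG00000052562, chromosome 19, 8335371 to 8405111), an organic anion transporter gene of the Slc22 family, was lower in high-numbered mice. Its level was 24.5 to 61.0 (median 38.9) in low-numbered and 7.54 to 40.5 (median 21.5) in high-numbered mice. In 21 of 28 high-numbered libraries it was below the lowest low-numbered library (log2 difference -0.86 ± 0.12 (SE), adjusted p = 7.17e-06). Aox3 (ENSMUSG00000064294, chromosome 1, 58113130 to 58200698), an aldehyde oxidase of mouse liver that oxidizes aldehydes and nitrogen-containing rings of drugs, was 129.9 to 429 (median 300.3) in low-numbered and 55.7 to 265 (median 142) in high-numbered mice. All 28 high-numbered libraries were below the low-numbered median, and 9 were below the low-numbered minimum (log2 difference -0.92 ± 0.13 (SE), adjusted p = 8.59e-06).

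**Figure D1:**
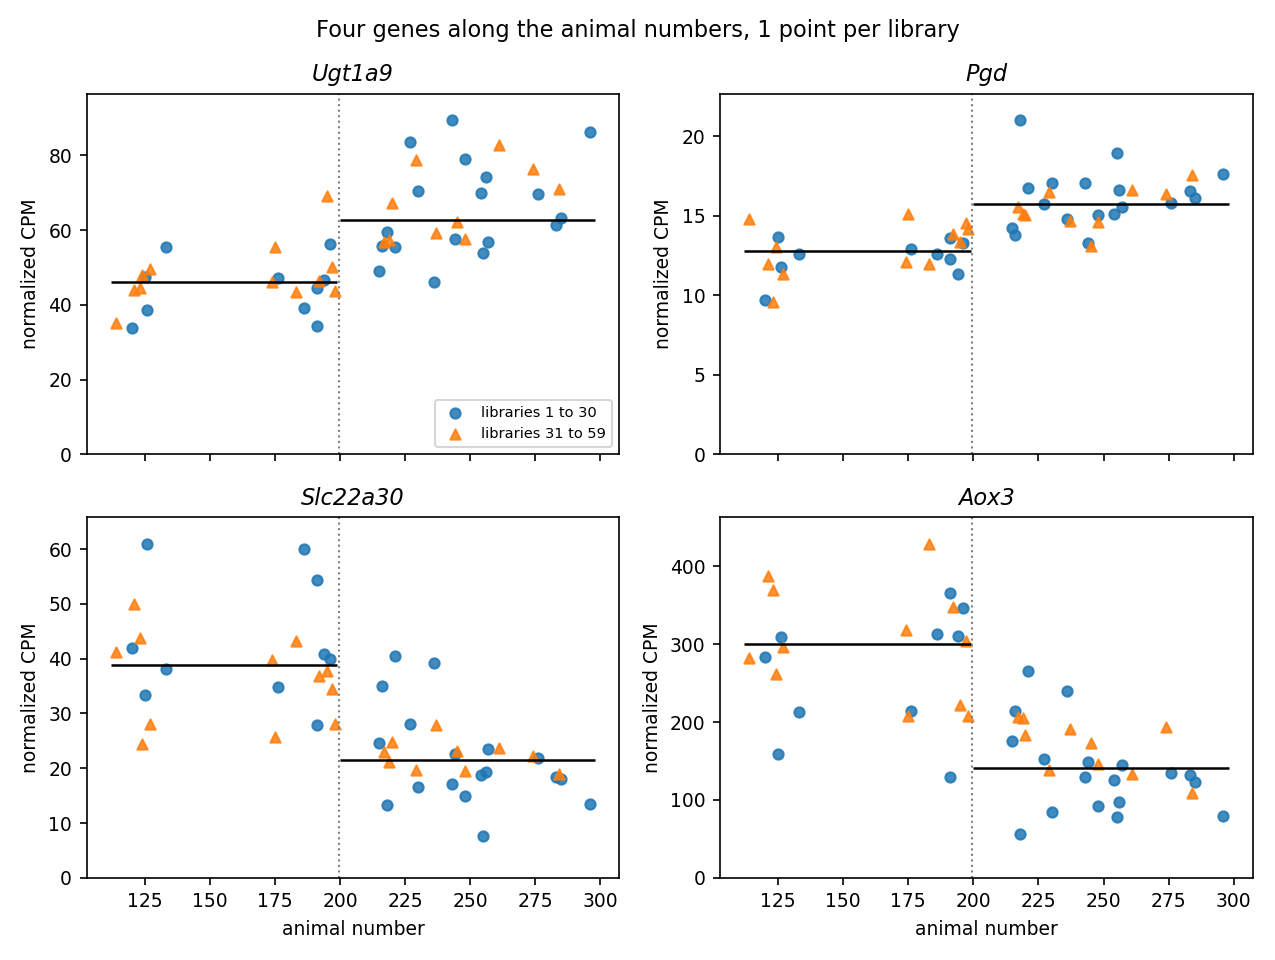
Normalized CPM of Ugt1a9, Pgd, Slc22a30 and Aox3 (y axes, linear from 0) against the animal number (x axes), with 1 point per library, circles for libraries 1 to 30, triangles for libraries 31 to 59, black lines for the group medians and a dotted line at the border. The 2 upper genes were higher and the 2 lower genes lower to the right of the border, in both library sets and with overlap between the groups.

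The 4 genes were also set against all others by the correlation of what remained after group and library set were removed, over the 50 libraries, as a description. Slc22a30 was most like Hsd3b5 (Pearson's r 0.85), Ugt2b1 (0.84) and Aox3 (0.82), and Aox3 was most like Acsm5 (0.84), Slc22a30 (0.82) and Slc25a23 (0.78). Slc20a2 (0.65) and Smpd3 (0.65) were among the genes most like Pgd. Ugt1a9 was most like Atp1b1, Fam234b and Rcsd1, at 0.58, 0.57 and 0.57. Aox3 and Slc22a30 thus varied together within the groups, and both varied opposite to Pgd (-0.59 and -0.50). The libraries behind these correlations share their order and differ in depth.

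Genes known for higher expression in male liver were lower in the high-numbered mice. Of 41 tested, 24 fell and 1 (Ces2e) rose, and the median difference of the list was -0.57 against -0.0022 over all genes. Besides Aox3, the members with the smallest p were Ghr, the growth hormone receptor gene (log2 difference -0.40, adjusted p = 2.24e-05), C9, a component of the membrane attack complex (-0.59, adjusted p = 2.39e-04), and Slc22a28, another organic anion transporter gene (-0.70, adjusted p = 3.93e-04). The median of Slc22a28 in the high-numbered libraries was below the mean of 1 needed for testing, so its test leaned on the low-numbered libraries. Hsd3b5, an androgen-inactivating steroid dehydrogenase and a standard marker of male mouse liver, was 2.76 to 46.4 (median 14.5) in low-numbered and 0.459 to 15.2 (median 4.14) in high-numbered mice (log2 difference -1.42 ± 0.30 (SE), adjusted p = 8.19e-04). Elovl3, a fatty acid elongase, was 24 to 254.5 (median 101) in low-numbered and 3.35 to 127.5 (median 48.4) in high-numbered mice (log2 difference -1.31 ± 0.32 (SE), adjusted p = 0.00324). High-numbered libraries below every low-numbered one numbered 9 for Hsd3b5 and 7 for Elovl3, and the others lay within the low-numbered range. The sex-biased lists were drawn from general knowledge of mouse liver.

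Female-biased genes went the other way. Of 35 tested, 19 rose and 1 fell, with a median difference of 0.35. The gene that fell was Slc22a30, whose place in this list was not checked and whose closest genes above were of the male-biased list. Cyp39a1, a hydroxylase of oxysterols on the way to bile acids, had the smallest p of all genes tested. Its values ran between 31.4 and 96.4 with a median of 62.8 in the low-numbered libraries and between 69.8 and 162 with a median of 103 in the high-numbered libraries. All 28 high-numbered libraries were above the low-numbered median and 19 were above every low-numbered library (log2 difference 0.77 ± 0.094 (SE), adjusted p = 9.19e-07). Gstt3, a glutathione transferase, and Fmo1, a flavin monooxygenase, followed (0.88, adjusted p = 1.18e-05, and 0.26, adjusted p = 2.14e-05).

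Differences of more than 1.6 on the log2 scale were seen for Cyp2b9 and Cyp2b10 among others of this list, and both genes were chosen after their values were seen. Cyp2b9, a P450 of female mouse liver, was 0 to 14.7 (median 0.568) in low-numbered and 0.0764 to 193 (median 4.84) in high-numbered mice (log2 difference 1.81 ± 0.49 (SE), adjusted p = 0.00745). Its highest value came from library 24, and the next highest was 56.2. Thus 8 high-numbered libraries exceeded every low-numbered one for Cyp2b9, and library 24 stood far above the rest. The low-numbered median of Cyp2b9 was below the mean of 1 needed for testing. Without library 24 the difference of Cyp2b9 was 1.66, and 18 genes of the list rose. Cyp2b10, a P450 that the nuclear receptor CAR induces, was 1.85 to 24.9 (median 9.995) in low-numbered and 8.13 to 118 (median 30.2) in high-numbered mice (log2 difference 1.73 ± 0.28 (SE), adjusted p = 3.37e-05). Cyp17a1, a steroid hydroxylase and lyase, was 9.11 to 65.1 (median 18.7) in low-numbered and 23.1 to 246 (median 63.4) in high-numbered mice (log2 difference 1.47 ± 0.24 (SE), adjusted p = 3.41e-05), with all 28 high-numbered libraries above the low-numbered median.

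Both lists held their direction in each library set. In libraries 1 to 30 and 31 to 59 the male-biased list had medians of -0.53 and -0.50, and 37 of 41 genes were below 0 in both. The female-biased list had medians of 0.38 and 0.44, with 26 of 35 above 0 in both. When the share of the 10 highest genes was a covariate, 2 male-biased genes fell and 7 female-biased genes rose. Of 4 Y-linked genes, 0 passed in limma (0 at an unadjusted p under 0.05), and all 50 libraries held at least 50 reads of each.

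**Figure D2:**
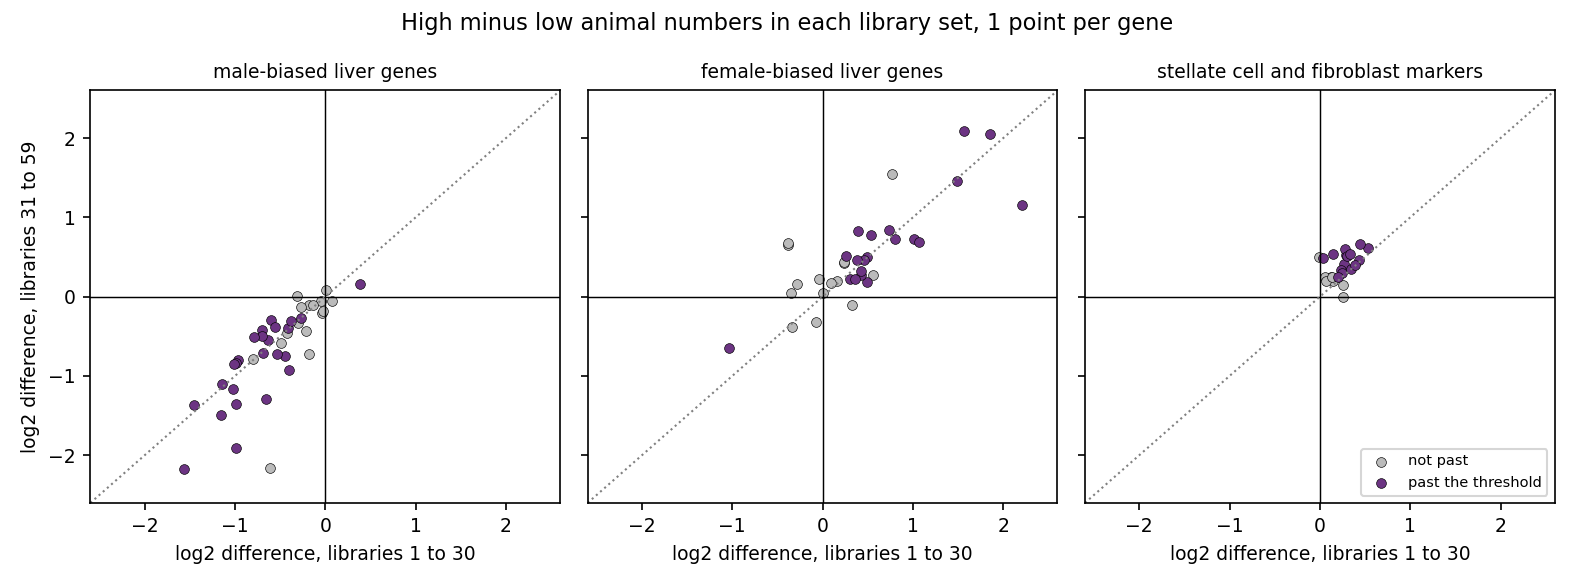
Log2 difference (high minus low animal numbers) of each gene in libraries 1 to 30 (x axis) and in libraries 31 to 59 (y axis), for male-biased genes, female-biased genes and stellate cell and fibroblast markers. Purple points passed the threshold over all 50 libraries, grey points did not, and the dotted line marks equal differences; 37 of 41 male-biased genes lie in the lower left and 21 of 23 stellate cell and fibroblast markers in the upper right.

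MUP genes, 8 of which are also in the male-biased list, were lower in high-numbered mice. Of 20 tested, 10 fell and none rose, and the list's median difference was -0.84 (18 of 20 below 0). Mup20, which encodes the pheromone darcin, was 443 to 2898 (median 928) in low-numbered and 120.6 to 1773 (median 418) in high-numbered mice (log2 difference -1.16 ± 0.24 (SE), adjusted p = 7.23e-04). Mup7 was 255.6 to 9630.2 (median 3998) in low-numbered and 23 to 5444 (median 992) in high-numbered mice (log2 difference -1.84 ± 0.54 (SE), adjusted p = 0.0139). The groups overlapped widely in both genes, and 14 high-numbered libraries for Mup20 and 6 for Mup7 were below the lowest low-numbered one. MUP genes are near-identical copies, and reads placed on several copies were not counted, so values of single members are uncertain. As given above, the share of such reads also differed between the groups, and its part in these differences was not tested. MUP genes also lie on chromosome 4, which segregated in the cross, and the part of genotype was not tested either. Without library 24, 7 MUP genes passed, and as many without the 4 libraries of repeated animal numbers. Alone, libraries 1 to 30 had 1 lower and libraries 31 to 59 2, and in the top-share fit 0 passed in limma (3 at an unadjusted p under 0.05), so that these calls were lost.

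Genes of the growth hormone axis itself passed at a share near the background (18.2% against 18.1%). Of 22 tested, 2 rose (Stat5a and Igfbp3) and 2 fell (Ghr and Hnf4a). The receptor gene Ghr was 200.4 to 301 (median 268) in low-numbered and 133.1 to 284.3 (median 199.5) in high-numbered mice, below the low-numbered median in 27 of 28 high-numbered libraries (log2 difference -0.40 ± 0.063 (SE), adjusted p = 2.24e-05). Stat5a was 4.83 to 9.20 (median 7.33) in low-numbered and 7.03 to 12 (median 9.10) in high-numbered mice (log2 difference 0.38 ± 0.061 (SE), adjusted p = 3.37e-05), and Igfbp3, a binding protein of insulin-like growth factors, was 9.17 to 21.1 (median 13.4) in low-numbered and 10.9 to 36.8 (median 20.1) in high-numbered mice (log2 difference 0.55 ± 0.10 (SE), adjusted p = 2.25e-04). Receptor and signal transducer thus differed in opposite directions. Hnf4a, a nuclear receptor that maintains hepatocyte identity, fell by 0.25 (adjusted p = 0.0123). The differences did not pass for Igf1 (-0.15, adjusted p = 0.0510), Stat5b (0.095, adjusted p = 0.140), Igfals (-0.25, adjusted p = 0.0758) or Bcl6 (-0.79, adjusted p = 0.0504), nor for the STAT5 targets Socs2 (0.18, adjusted p = 0.641) and Cish (0.48, adjusted p = 0.0660).

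In a list of genes tied to early life in the liver, 4 of 15 rose and none fell. Not every member is a gene that is high in fetal or juvenile liver. Zhx2, Zbtb20 and Cyp3a11 are not, and they did not pass. Igf2bp3, a fetal RNA-binding protein encoded on chromosome 6, was 2.58 to 10.6 (median 5.97) in low-numbered and 6.84 to 14.4 (median 9.92) in high-numbered mice, and all 28 high-numbered libraries were above the low-numbered median (log2 difference 0.78 ± 0.11 (SE), adjusted p = 7.17e-06). Ly6d (0.52, adjusted p = 0.00237), Grb10, an imprinted growth inhibitor (0.34, adjusted p = 0.00806), and the proliferation marker Mki67 (0.39, adjusted p = 0.0429) were the others. H19 did not pass (0.62, adjusted p = 0.203). The letters TTCNNNGAA (N for any base, both strands), the core that STAT5 binds, stood in 6.25% of the 32 male-biased and 8.33% of the 24 female-biased promoters that RefSeq's table holds, against 6.91% of 8963 promoters of the genes tested.

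**Figure D3:**
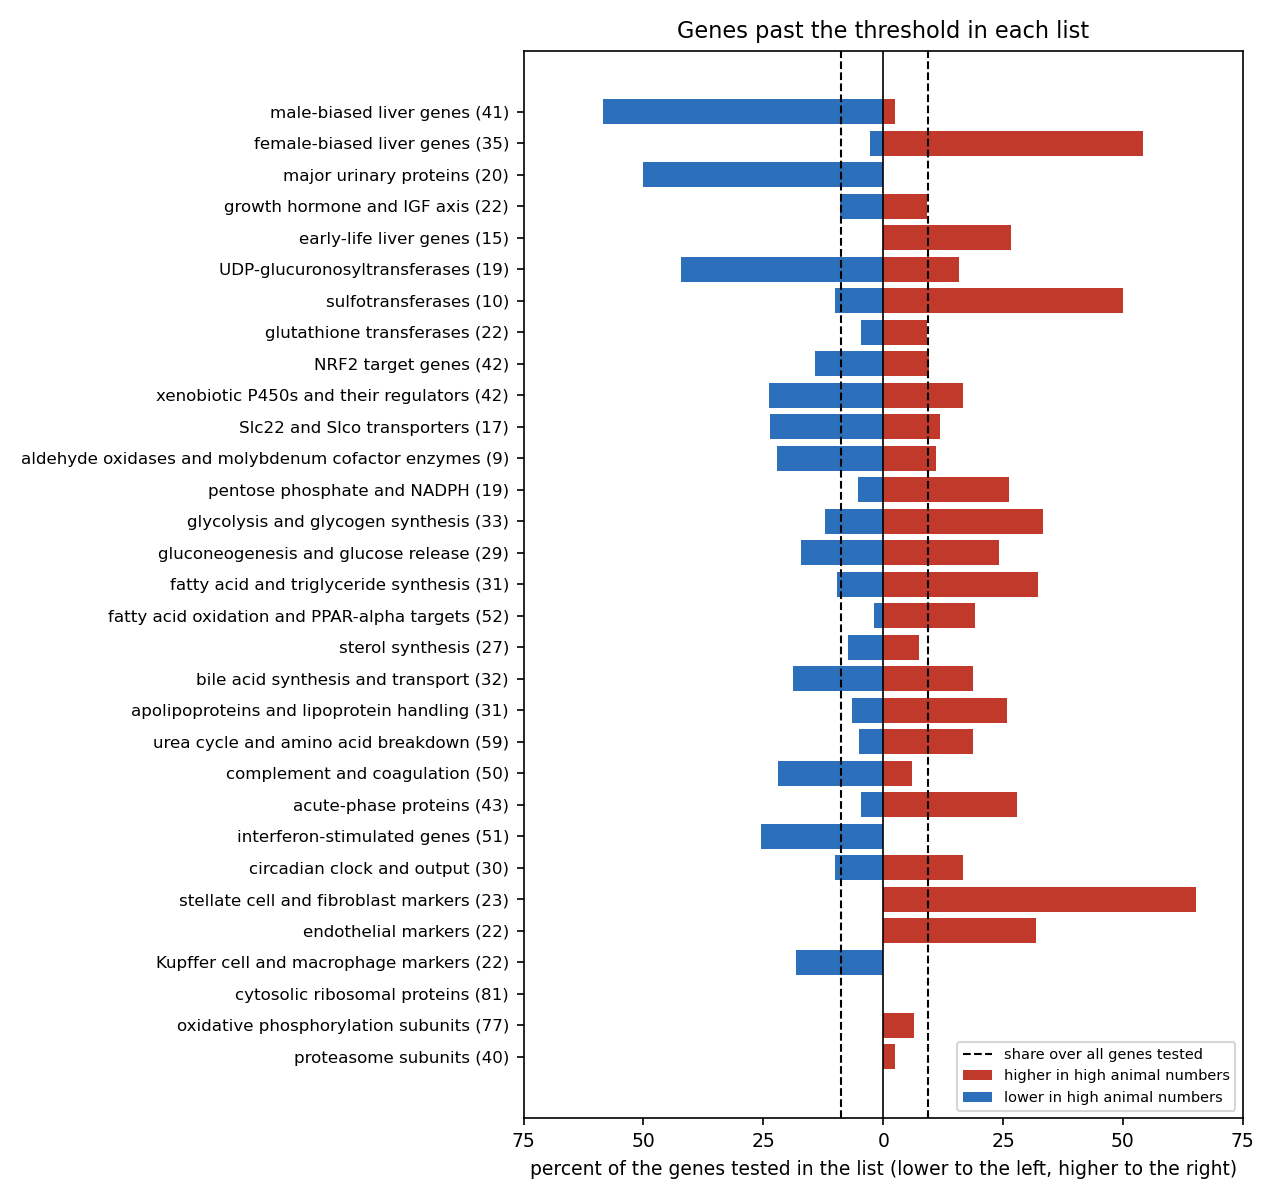
Percent of each list's tested genes (number in parentheses) that passed the threshold and were higher (red, to the right) or lower (blue, to the left) in high-numbered mice, with dashed lines at the shares over all genes tested (9.29% and 8.78%). Male-biased genes, MUPs and UDP-glucuronosyltransferases stand out to the left, female-biased genes, sulfotransferases and stellate cell and fibroblast markers to the right, and ribosomal proteins show no bar.

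The conjugating enzymes differed in both directions, also within families. Of 19 genes in the list of UDP-glucuronosyltransferases, 8 fell and 3 rose. The list also holds Ugdh, Ugp2, Slc35d1 and Slc35d2, which are not glucuronosyltransferases and did not pass. The 3 that rose were of the Ugt1a cluster on chromosome 1: Ugt1a9, Ugt1a1, which conjugates bilirubin (log2 difference 0.29 ± 0.051 (SE), adjusted p = 1.21e-04), and Ugt1a5 (0.37, adjusted p = 0.0289). Ugt1a6b of the same cluster fell by 0.19 (adjusted p = 0.0459). The others that fell were Ugt2b and related genes, among them Ugt2b5, which was 428 to 832 (median 579.6) in low-numbered and 268 to 690.5 (median 432) in high-numbered mice (log2 difference -0.46 ± 0.080 (SE), adjusted p = 7.78e-05), and Ugt2a3 (-0.31, adjusted p = 8.45e-04). When the share of the 10 highest genes was a covariate, 2 of the 19 rose and 0 fell in limma. Members of the Ugt1a cluster share their last exons, and Ugt2b genes are close copies, so reads common to them were not assigned to 1 gene. Among 10 genes in the list of sulfotransferases, 5 rose and 1 fell. The list also holds Papss1 and Papss2, which are not sulfotransferases, and Papss2 was among those that rose. Sult1e1, the estrogen sulfotransferase, was 0.0804 to 1.27 (median 0.392) in low-numbered and 0.405 to 6.19 (median 0.900) in high-numbered mice (log2 difference 0.89 ± 0.20 (SE), adjusted p = 0.00138), and Sult1d1 and Sult1a1 rose by 0.42 and 0.37. The lowest value of Sult1e1 was below what 3 reads were worth in a library (0.0951 to 0.259). Sult1e1 reached the mean of 1 needed for testing only through the high-numbered libraries. Sult2a8, a bile acid sulfotransferase of mouse liver, fell by 0.41, whereas Sult2a7 of the same family rose by 0.365. Of these genes, 5 rose in libraries 1 to 30 alone, whereas in libraries 31 to 59 alone, and over all libraries in the top-share fit, 0 passed in limma (5 and 4 at an unadjusted p under 0.05).

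Targets of the oxidant-responsive factor NRF2 passed at 23.8%, not far from the background of 18.1%. Of 42, 4 rose, among them Nqo1, a quinone reductase (log2 difference 0.33 ± 0.076 (SE), adjusted p = 0.00191), and Gstm2 (0.31, adjusted p = 0.00537). The 6 that fell included Aox1 (-0.45, adjusted p = 0.00114) and Gstp1, a glutathione transferase that is male-biased in mouse liver (-0.59, adjusted p = 0.00199). In the top-share fit 1 of these targets rose and 0 fell in limma. The P450 list, which also holds Por and the regulators Nr1i3, Nr1i2, Arnt and Ahr, had 7 genes higher and 10 lower of 42. Arnt was among those that rose. Beside Cyp2b10, Cyp2c67 fell (-0.50, adjusted p = 3.51e-04), Cyp3a13 rose (0.32, adjusted p = 5.33e-04) and Cyp2a22 rose (1.14, adjusted p = 0.00104). Nr1i3, which encodes CAR, was itself lower (-0.39, adjusted p = 0.00250), as was Nr1i2, which encodes the pregnane X receptor (-0.19, adjusted p = 0.0242). CAR and its target Cyp2b10 thus had opposite signs. Cyp2e1 did not pass (-0.13, adjusted p = 0.285).

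Of 17 transporter genes of the Slc22 and Slco families, 4 fell and 2 rose. Slco1a4, which is higher in female liver, rose (0.35, adjusted p = 0.0151), and Slco1a1, its male-biased neighbour on chromosome 6, fell (-0.61, adjusted p = 0.0168). Slc22a28 was 0.603 to 3.73 (median 1.58) in low-numbered and 0.142 to 1.90 (median 0.745) in high-numbered mice, with its lowest values near what 3 reads were worth in a library, 0.0951 to 0.259 (log2 difference -0.70 ± 0.14 (SE), adjusted p = 3.93e-04). Its high-numbered median was below the mean of 1 needed for testing, so its test leaned on the group where it was high. Among 9 aldehyde oxidases and molybdenum cofactor enzymes, Aox3 and Aox1 fell and 1 rose.

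Pgd had the smallest p among the genes of its pathway. In the list of pentose phosphate and NADPH enzymes, 5 of 19 rose and 1 fell. Pgm2 (0.33, adjusted p = 0.00552), Shpk (0.15, adjusted p = 0.00638) and Mthfd1 (0.14, adjusted p = 0.0211) rose, and the last makes NADPH through folate and not through pentose phosphates. The neighbours of Pgd in the pathway did not pass: G6pdx had a difference of -0.11, adjusted p = 0.279, Taldo1 of -0.040, adjusted p = 0.553, and Tkt of 0.032, adjusted p = 0.669. Of 33 genes of glycolysis and glycogen synthesis, 11 rose and 4 fell. Eno1, an enolase, rose by 0.34 (adjusted p = 4.57e-04). For this list the 2 library sets differed, with a median of 0.17 in libraries 1 to 30 and 0.0082 in libraries 31 to 59, a difference that was not tested for the list. In the same order 13 and 1 genes rose, and 2 did in the top-share fit.

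In gluconeogenesis and glucose release, 7 of 29 genes rose and 5 fell. Pcx, pyruvate carboxylase, rose (0.26, adjusted p = 3.57e-04), while the glucagon receptor gene Gcgr (-0.23, adjusted p = 2.16e-04), the fasting regulator Klf15 (-0.37, adjusted p = 0.00106) and Pck1, the rate-setting carboxykinase (-0.21, adjusted p = 0.0311), fell. G6pc did not pass (-0.12, adjusted p = 0.467). Alone, libraries 1 to 30 had 7 genes of the list higher and 2 lower, against 0 and 3 in libraries 31 to 59 (limma), with list medians of 0.072 and -0.0067. The top-share fit called 0 higher and 1 lower.

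Fat-making genes were higher in part. Of 31 genes of fatty acid and triglyceride synthesis, 10 rose and 3 fell. Fasn, fatty acid synthase, was 21.6 to 46.4 (median 32.4) in low-numbered and 25.4 to 73.4 (median 48.2) in high-numbered mice (log2 difference 0.53 ± 0.10 (SE), adjusted p = 2.68e-04), with 15 high-numbered libraries above every low-numbered one. Acacb, an acetyl-CoA carboxylase (0.50, adjusted p = 7.58e-04), Acaca, the other (0.28), and Thrsp (0.85, adjusted p = 0.00236) rose. Mlxipl, which encodes the carbohydrate-response factor ChREBP, fell by 0.39 over all libraries (adjusted p = 0.00151), with differences of -0.69 in libraries 1 to 30 and -0.048 in libraries 31 to 59 (limma interaction, adjusted p = 0.0450). Srebf1 (0.28, adjusted p = 0.255), Scd1 (-0.25, adjusted p = 0.271) and Acly (0.079, adjusted p = 0.387) did not pass.

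Of 52 fatty acid oxidation genes and PPAR-alpha targets, 10 rose and 1 (Fabp1, -0.34, adjusted p = 0.0252) fell. The share that passed was 21.2%, not far from the background of 18.1%. Cyp4a14 and Cyp4a10, omega-hydroxylases of fatty acids, rose by 0.50 and 0.38 (adjusted p = 6.11e-05 and 7.23e-04), and Cidec, a lipid droplet protein, was 1.11 to 13.7 (median 3.30) in low-numbered and 3.25 to 57.1 (median 7.53) in high-numbered mice (log2 difference 1.04 ± 0.23 (SE), adjusted p = 0.00130). Ppara itself did not pass (-0.12, adjusted p = 0.365). Of 31 genes of lipoprotein handling, 8 rose and 2 fell. Apoa4, an apolipoprotein that follows the fat content of liver and gut, was 134 to 1341 (median 349) in low-numbered and 282 to 3591 (median 989) in high-numbered mice (log2 difference 1.22 ± 0.21 (SE), adjusted p = 9.89e-05). Lpl, lipoprotein lipase, rose by 0.65 and Vldlr by 0.59, and Mttp, which loads fat onto lipoproteins, by 0.17 (adjusted p = 0.00252). Taken alone, libraries 1 to 30 had 9 genes of fatty acid oxidation and 9 of lipoprotein handling higher, against 1 and 2 in libraries 31 to 59. In the top-share fit 2 and 2 rose, and so did 2 of the genes of fatty acid and triglyceride synthesis. Sterol synthesis was near the background, with 2 higher, Dhcr7 among them, and 2 lower (Insig1 and Acat2) of 27.

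Bile acid genes differed in both directions. Of 32, 6 rose and 6 fell. Cyp7a1, the rate-limiting enzyme of bile acid synthesis, was 45.6 to 271 (median 95.6) in low-numbered and 62.1 to 423 (median 173) in high-numbered mice (log2 difference 0.74 ± 0.19 (SE), adjusted p = 0.00425), and Slc10a1, which takes up bile acids from blood, rose by 0.24 (adjusted p = 3.20e-04). Cyp7b1, the male-biased hydroxylase of the alternative route, was 18.7 to 218.2 (median 89.4) in low-numbered and 6.97 to 190.4 (median 31.6) in high-numbered mice (log2 difference -1.09 ± 0.31 (SE), adjusted p = 0.0103). Akr1c6, a hydroxysteroid dehydrogenase, fell by 0.65 (adjusted p = 1.92e-04) and Nr0b2, the repressor SHP, by 0.64 (adjusted p = 0.0182). The hydroxylases Cyp7a1 and Cyp39a1 thus differed in the direction opposite to Cyp7b1.

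Of 59 genes of the urea cycle and amino acid breakdown, 11 rose and 3 fell (23.7% passed, not far from the background of 18.1%). Mat1a, which makes S-adenosylmethionine, and Cps1, which starts the urea cycle, both rose by 0.36 (adjusted p = 6.22e-04 and 7.07e-04). Bhmt, which remethylates homocysteine with betaine, was 1956 to 8539 (median 4625) in low-numbered and 3449.9 to 13659 (median 8337) in high-numbered mice (log2 difference 0.72 ± 0.15 (SE), adjusted p = 8.37e-04), and Arg1 rose by 0.22. Otc fell by 0.15. In libraries 1 to 30 alone 14 genes of the list rose, whereas in libraries 31 to 59 alone 0 rose and 2 fell in limma, with list medians of 0.084 and -0.045. The top-share fit called 1 of them higher and 1 lower.

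Genes of plasma proteins differed by class. In complement and coagulation, 11 of 50 fell and 3 rose, and the terminal complement components led those that fell. C6 was 65.8 to 194.1 (median 116) in low-numbered and 18.7 to 153 (median 54.9) in high-numbered mice (log2 difference -0.89 ± 0.18 (SE), adjusted p = 4.52e-04), and C8a was 314 to 523 (median 433) in low-numbered and 186.3 to 491 (median 309.6) in high-numbered mice (log2 difference -0.39 ± 0.068 (SE), adjusted p = 6.99e-05). C8b, C8g and Hc (complement C5) fell by 0.27, 0.15 and 0.24, and C9 is given above. C6, C8b and C9 are also in the male-biased list. Of the whole list, 1 gene fell in the top-share fit. Of 43 acute-phase genes, 12 rose and 2 fell. Alone, libraries 1 to 30 had 12 higher and 1 lower (median 0.10). In libraries 31 to 59 (median -0.0035), and over all libraries in the top-share fit, 0 passed in limma (6 and 7 at an unadjusted p under 0.05). Alb (albumin, whose level falls in an acute-phase response) rose by 0.26 (adjusted p = 1.46e-04), and the metal-binding Mt1 by 0.60 (adjusted p = 0.00106). Apcs rose by 0.32 and Saa4 fell by 0.41, while Saa1 did not pass (-0.39, adjusted p = 0.364). The members that rose thus include proteins of opposite acute-phase behaviour.

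Interferon-stimulated genes were lower where they differed. Of 51, 13 fell and none rose, with a median of -0.12. Irf7, a transcription factor of the interferon response, was 22.9 to 37 (median 29.5) in low-numbered and 14.3 to 32.3 (median 22.1) in high-numbered mice, below the lowest low-numbered library in 17 of 28 (log2 difference -0.47 ± 0.079 (SE), adjusted p = 4.72e-05). Ifi27 (-0.39, adjusted p = 0.00216), Oas2, which senses double-stranded RNA (-0.39, adjusted p = 0.00263), and Stat2 (-0.26, adjusted p = 0.00409) followed, and Isg15 (-0.25, adjusted p = 0.132) and Ifit1 (-0.081, adjusted p = 0.700) did not pass. In libraries 1 to 30 12 genes passed with a list median of -0.21, against 2 and -0.039 in libraries 31 to 59. Over all libraries, 3 fell beside the share of the 10 highest genes as covariate.

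The promoters of interferon-stimulated genes carry a known element, with GAAA, any 2 bases and again GAAA on either strand, and 3 of the genes that fell are shown with it. In the RefSeq promoter table (250 bases before to 50 after the first listed start, GRCm38.p6), it stood in 20 of the 36 list members present (55.6%) and in 6 of the 9 present that fell, against 3.08% of 8963 promoters of genes tested. The matches, which may overlap, are in capitals, and the promoters are of Stat2 (chr10:128270248-128270547, plus strand), Oas1a (chr5:120907476-120907775, minus strand) and Bst2 (chr8:71537423-71537722, minus strand), of which Oas1a fell by 0.32 and Bst2 by 0.19 (adjusted p = 0.00410 and 0.00724).
Stat2: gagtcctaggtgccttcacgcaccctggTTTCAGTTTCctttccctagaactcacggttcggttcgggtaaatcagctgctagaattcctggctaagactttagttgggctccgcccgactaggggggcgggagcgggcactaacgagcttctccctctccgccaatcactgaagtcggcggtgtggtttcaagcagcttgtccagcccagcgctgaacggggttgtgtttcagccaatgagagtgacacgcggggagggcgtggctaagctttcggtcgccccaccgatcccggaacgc
Oas1a: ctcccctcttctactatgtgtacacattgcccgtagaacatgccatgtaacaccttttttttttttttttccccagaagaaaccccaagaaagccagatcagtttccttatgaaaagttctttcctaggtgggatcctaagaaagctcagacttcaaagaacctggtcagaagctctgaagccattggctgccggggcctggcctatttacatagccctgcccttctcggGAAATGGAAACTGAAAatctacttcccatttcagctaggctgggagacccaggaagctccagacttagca
Bst2: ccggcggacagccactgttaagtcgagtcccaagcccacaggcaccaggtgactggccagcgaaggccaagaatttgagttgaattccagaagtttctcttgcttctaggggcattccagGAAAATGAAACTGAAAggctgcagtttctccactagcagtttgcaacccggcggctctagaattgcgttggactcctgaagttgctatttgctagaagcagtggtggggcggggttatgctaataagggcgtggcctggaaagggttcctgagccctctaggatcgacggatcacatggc
Over all genes that fell, the element stood in 5.32% of 789 promoters and over those that rose in 2.24% of 804. In the promoters of Ugt1a9, Pgd, Slc22a30 and Aox3, neither these letters nor TTCNNNGAA, the NRF2 core TGACNNNGC or the E-box CACGTG were found in the window.

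Genes of the circadian clock and of the cell cycle differed in both directions. Of 30 clock and clock output genes, 5 rose, among them Npas2 and Arntl of the activating arm (0.72, adjusted p = 0.0142, and 0.40, adjusted p = 0.0250), and 3 fell, among them the repressors Nr1d1 (-0.57, adjusted p = 0.0428) and Nr1d2 (-0.32, adjusted p = 0.0167). Dbp did not pass (-0.44, adjusted p = 0.291). Without the 4 libraries of repeated animal numbers 4 of these genes rose and 0 fell, and in libraries 31 to 59 alone, or in the top-share fit, 0 passed in limma (5 and 7 at an unadjusted p under 0.05). Of 41 chaperone and unfolded protein response genes, 14.6% passed, below the background. Herpud1 (-0.74, adjusted p = 0.00108), Ddit3, Dnajb1, Hsph1 and Hsf1 fell, and Asns rose. In 27 cell cycle genes 5 rose, Rrm2 among them (0.37, adjusted p = 0.00337), and 4 fell, Mcm10 among them (-0.58, adjusted p = 4.17e-04). No direction was shared in this last list. In the top-share fit 0 chaperone genes passed in limma (5 at an unadjusted p under 0.05), and 2 cell cycle genes fell.

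Lists of zonation, iron handling and transferases held genes of both directions. Of 20 periportal genes 6 rose and 2 fell, and of 20 pericentral genes 2 rose and 2 fell. Among 34 genes of iron and heme handling 3 rose and 4 fell, among 22 glutathione transferases 2 rose and 1 fell, and among 20 immediate-early genes 1 rose and 2 fell, Dusp1 among the latter (-0.53, adjusted p = 0.0252). The shares that passed were near the background in all of these lists but the periportal one. In 3 further lists the library sets went opposite ways. Of 81 ribosomal protein genes none passed over all libraries in limma (3 at an unadjusted p under 0.05), but 76 had opposite signs in the sets (medians 0.091 and -0.14). Of 77 subunits of oxidative phosphorylation 5 rose and 71 had opposite signs (medians 0.13 and -0.14), with 22 higher in libraries 1 to 30 alone and 3 lower in libraries 31 to 59 alone. Of 40 proteasome subunits 1 rose and 30 had opposite signs (medians 0.071 and -0.068).

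Genes of the connective tissue of the liver were higher in high-numbered mice. Of 23 markers of stellate cells and fibroblasts, 15 rose and none fell, and all 23 had differences above 0 (median 0.28). Sparc, a matrix glycoprotein, was 54.7 to 118 (median 83.9) in low-numbered and 98.5 to 208 (median 119) in high-numbered mice, above every low-numbered library in 16 of 28 (log2 difference 0.57 ± 0.074 (SE), adjusted p = 2.34e-06). Col4a1, of basement membranes, was 21.6 to 44.6 (median 32.8) in low-numbered and 34.2 to 67.8 (median 42.5) in high-numbered mice (log2 difference 0.42 ± 0.070 (SE), adjusted p = 4.36e-05). The fibrillar collagen gene Col3a1 rose by 0.55, Fbln5 by 0.45 and Col4a2 by 0.40 (adjusted p = 0.00196, 2.47e-05 and 1.82e-04). Eln (elastin), which is not in the list, was 2.25 to 10.2 (median 4.29) in low-numbered and 5.19 to 14.5 (median 8.20) in high-numbered mice (log2 difference 0.78 ± 0.12 (SE), adjusted p = 1.01e-05). The members with the smallest p (Sparc, Fbln5, Col4a1 and Col4a2) were matrix genes. Hand2, Colec11, Pdgfrb and Rgs5 also rose, by 0.22, 0.26, 0.28 and 0.25. Lrat (0.14, adjusted p = 0.190), which marks quiescent stellate cells, and Acta2 (0.20, adjusted p = 0.467), which marks activated ones, did not pass. The matrix genes Lum and Bgn did not pass either. With the 10 highest genes' share as covariate, 6 of the 23 rose. The markers' summed level was 342 to 615 normalized CPM (median 465) in low- and 499 to 871 (median 582) in high-numbered libraries (log2 difference 0.38, permutation test, adjusted p = 4.00e-05, the smallest that the resamples can give). In bulk tissue, more cells of a type and more RNA per cell cannot be told apart.

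Other cell types were checked by the same sums. Kupffer cell and macrophage markers had a summed level with a median of 857 in low- and 837 in high-numbered libraries (difference -0.037, permutation test, adjusted p = 0.447). Of its 22 genes, 4 fell, a share of 18.2% and near the background of 18.1%. They were the antigen-presenting H2-Ab1, H2-Aa and H2-Eb1 and Lyz2 (-0.37, adjusted p = 0.0109, for the first). Clec4f, which defines Kupffer cells, had medians of 92.8 in low- and 90.9 in high-numbered libraries. Endothelial markers rose in 7 of 22, led by Lyve1 (0.47, adjusted p = 0.00198), and cholangiocyte markers in 3 of 12, with summed differences of 0.082 and 0.16. Of 7 lymphocyte and neutrophil markers tested 1 rose (14.3%, below the background). It was Lcn2 (0.90), which is also in the acute-phase list, while S100a9 of neutrophils did not pass (0.012). Of these 4 marker lists, 0 genes passed in the top-share fit in limma (4, 7, 3 and 2, in this order, at an unadjusted p under 0.05). Hepatocyte markers summed to a median of 113505 in low- and 131077 in high-numbered libraries (difference 0.20, permutation test, adjusted p = 4.00e-05), a sum that albumin dominates. The defining markers Cd3e, S100a8, Krt7, Adipoq, Plin1, Prss2 and Cpa1 had no row in the table used here, and the part of cell makeup in the differences above was not tested.

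Globin genes, markers of red blood cells, were higher in the high-numbered mice. Hba-a1 was 9.68 to 52.7 (median 27.3) in low-numbered and 33.1 to 79.8 (median 44.7) in high-numbered mice, and all 28 high-numbered libraries were above the low-numbered median (log2 difference 0.95 ± 0.13 (SE), adjusted p = 3.01e-06). Hba-a2, Hbb-bs and Hbb-bt rose by 0.86, 0.81 and 0.79 (adjusted p = 1.18e-05, 1.61e-05 and 4.72e-05), and these are near-identical pairs, from which reads common to a pair were not counted. Alas2, which makes heme in red cell precursors, and Car1 fell (-0.30, adjusted p = 0.00349, and -0.74, adjusted p = 6.66e-05), so that of 10 blood markers 5 rose and 2 fell. Car2 of the same list rose with the globins (0.41). Of the blood markers that passed, only Alas2 and Car1 thus differed in the other direction. Of the adipose and pancreas markers 2 of 19 were present, Car3 and Cela1, and both fell. Car3, a carbonic anhydrase of fat and of male liver, was 141 to 546 (median 344) in low-numbered and 37.9 to 395 (median 156) in high-numbered mice (log2 difference -1.24 ± 0.18 (SE), adjusted p = 1.01e-05).

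Of the genes with the smallest p that no list above holds, Tgfbr2, a receptor of TGF-beta, was 16.5 to 32.3 (median 20.9) in low-numbered and 21.3 to 38.2 (median 31.1) in high-numbered mice (log2 difference 0.45 ± 0.066 (SE), adjusted p = 1.01e-05). Cdcp1, a cell surface glycoprotein, was 1.69 to 6.42 (median 3.85) in low-numbered and 2.88 to 11 (median 7.46) in high-numbered mice (log2 difference 0.85 ± 0.13 (SE), adjusted p = 1.10e-05), and Hsbp1l1 rose as well (0.72, adjusted p = 3.01e-06). These were above the low-numbered median in 28, 27 and 27 of 28 high-numbered libraries. Srd5a1, steroid 5-alpha-reductase, was 40.5 to 79.1 (median 57.2) in low-numbered and 19.3 to 54.4 (median 39.1) in high-numbered mice, below the low-numbered median in all 28 high-numbered libraries (log2 difference -0.55 ± 0.080 (SE), adjusted p = 8.59e-06). Ces1f, a carboxylesterase, was 129 to 281 (median 204) in low-numbered and 44.9 to 197.9 (median 132) in high-numbered mice (log2 difference -0.70 ± 0.11 (SE), adjusted p = 1.61e-05). The ubiquitin ligase gene Znrf1 (-0.35, adjusted p = 3.01e-06), the motor adaptor Bicd2 (-0.32, adjusted p = 1.01e-05), the inflammasome component Nlrp6 (-0.45, adjusted p = 1.10e-05), Srrt, of small RNA processing (-0.29, adjusted p = 1.10e-05), and AI463229 (-0.62, adjusted p = 1.23e-05) fell.

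Along the 4 runs of animal numbers, the medians of the sex-biased lists moved further across the border than between the other neighbouring runs. Relative to the first run, the median of the male-biased genes was 0.13 in the second, -0.43 in the third and -0.57 in the fourth. MUP genes were at 0.033, -0.78 and -1.22, and female-biased genes at -0.18, 0.19 and 0.32. Before the border these medians moved in the direction opposite to the step, and after it they went on in its direction. These are medians of levels, without the library set as covariate.

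**Figure D4:**
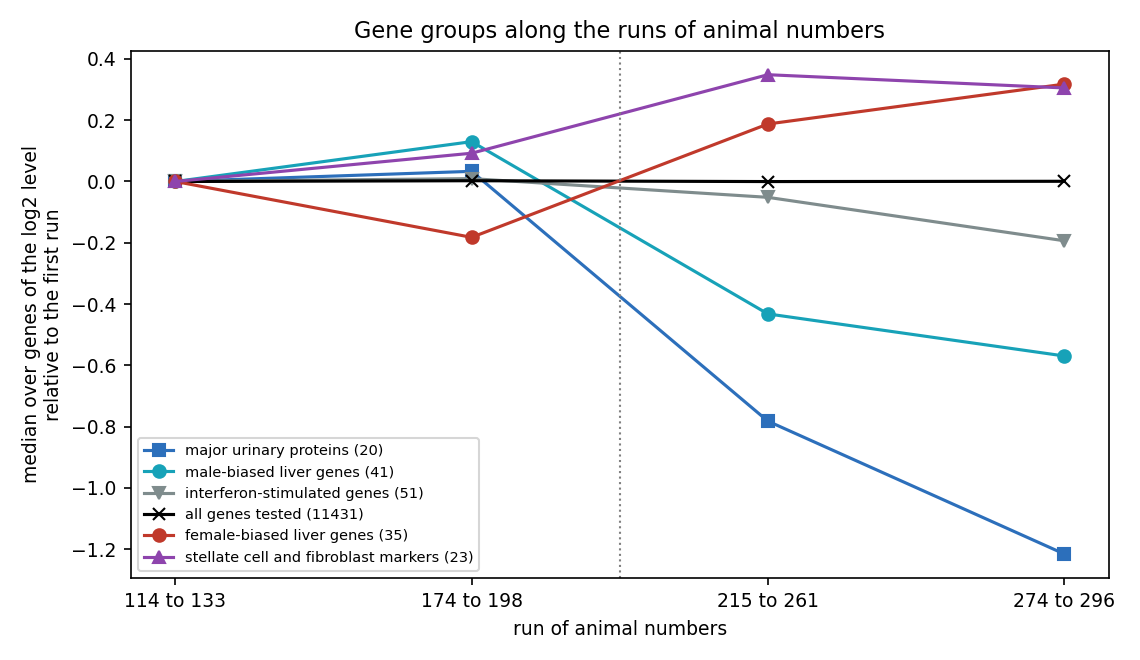
Median over the genes of each list of the log2 level relative to the run of mice I114 to I133 (y axis), for the 4 runs in order (x axis), with a dotted line at the border of 200 and the number of genes in parentheses. All genes tested stay near 0, whereas MUP genes reach -1.22 and female-biased genes 0.32 in the last run.

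Of the genes on chromosome 4, 154 of 729 (21.1%) passed, and on chromosome 6 105 of 575 (18.3%), against 1807 of 10124 (17.85%) elsewhere. Most of the genes tested lay elsewhere, and the part of genotype in the differences was not tested. Among 9 genes that the study names with these data, Cadps2 fell (-0.31, adjusted p = 0.0124) and Rasa3 (0.23, adjusted p = 0.0152) and Arhgap25 (0.23, adjusted p = 0.0158) rose, and the other 6 did not pass.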

How the data were processed

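The deposited table held 1 column per library of a normalized expression signal that the authors made as follows: adapters were trimmed, reads aligned with HISAT2 to GRCm38.p5 and counted per gene with HTSeq 0.11.1, low genes removed, and the counts scaled between libraries with edgeR. The sources name different trimming programs (Trimmomatic in the methods, Trim Galore in the processing notes). The columns summed to different totals, so that values, called normalized CPM here, are not plain CPM. Every value was a whole multiple of 1 step per library (100% whole within 0.01 reads), from which the reads were recovered. The table held 12185 rows, of which 5 were HTSeq tallies (17.0 to 25.3% of all reads per library) and were left out. The 12180 gene rows gave 9430126 to 24355042 reads per library, 3 of which were worth 0.0951 to 0.259 normalized CPM. Libraries were placed by the numbers in their titles. Replicates are libraries with their own titles. Not every one may come from a separate mouse, and p-values measure the spread between libraries.

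Genes with a mean of at least 1 were tested with limma 3.58.1 (R 4.3.3) on log2(value + 0.5), a scale that understates the change of low genes, with the library set as covariate, two-sided, with Benjamini-Hochberg adjustment over all 11431 genes and a threshold of 0.05. A log2 difference is high minus low throughout. On the recovered reads, edgeR 4.0.16 (quasi-likelihood) called 2080 genes and DESeq2 1.42.0 called 2192. Tested on simulated data of 11431 genes for this comparison, limma recovered 96 of 100 genes changed 1.5-fold and 99 of 100 changed 2-fold, and called 4 unchanged genes. The simulated counts were drawn independently, without an effect of library order or variation shared between genes. They cannot show how many calls in the real data follow from these. The interaction of group and library set and the contrasts of neighbouring runs, which share libraries, were fitted in the same way. Summed marker levels were compared by a two-sided permutation test (100000 resamples, scipy 1.17.1), adjusted over the 8 lists. This test had no covariate, so the library set was not accounted for, unlike in the limma fits. Promoter sequences were RefSeq's (GRCm38.p6), matched by symbol for 8963 of the 11431 genes.

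Genes named were the 4 marker genes, in each direction the 10 of smallest adjusted p whose sign was shared by both library sets, the 4 members of each list with the smallest p, and 9 genes that the study names. Other list members were named after their values were seen, and some genes are not reported here. The border, members and lists were chosen with earlier results of these data known. Alternatives were other pseudocounts, filters, scalings, covariates and tools, each library set alone, and fits without single libraries. Genotypes were not used here.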

Additional observations from a re-analysis of the deposited data

Results flagged for a closer look

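The contrast of high against low animal numbers differed between libraries 1 to 30 and libraries 31 to 59 for 33 genes (limma interaction, adjusted p of 0.05; 0.289% of the genes tested, with 1991 at an unadjusted p under 0.05), 32 of them with the more positive difference in libraries 31 to 59. With the share of reads outside genes as covariate, an alternative chosen after the data were seen, 0 genes passed this test in limma (388 at an unadjusted p under 0.05), and with edgeR 22 passed. That share had medians of 5.27% and 4.05% of the reads on genes in low- and high-numbered libraries of the first set, and of 3.59% and 3.88% in the second. Leng8 differed by -0.57 in libraries 1 to 30 and by 0.17 in libraries 31 to 59, an interaction of 0.74 ± 0.15 (SE, adjusted p = 0.0219). Ddx17, an RNA helicase gene, had differences of -0.61 and -0.026 (interaction 0.59 ± 0.13, adjusted p = 0.0274). For Mlxipl the interaction was 0.64 ± 0.15 (adjusted p = 0.0450). Dad1, of the oligosaccharyltransferase, was the gene with the opposite interaction, -0.37 ± 0.078 (adjusted p = 0.0257), with differences of 0.095 and -0.27. These genes were named after their values were seen. Groups of 22 and 28 libraries are too large for the test of single outlying samples.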

How the results depend on the processing

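The count of 2066 genes stayed between 1547 and 2217 with other pseudocounts, filters, scalings and tools, with no covariate, the animal number as a line, the counted reads or (chosen after the data were seen) the share of reads outside genes as covariate, in libraries 1 to 30 alone, and without the libraries 10 and 55, 24 or those of repeated animal numbers. It was 330 in libraries 31 to 59 alone, where fewer libraries were tested, 240 when the share of the 10 highest genes was a covariate and 1 with the library's position within its set as covariate, which follows the animal number; for the last 2 the cause was not tested. Leaving out single libraries gave 1716 (without library 4) to 2248 (without library 44) genes. The test of a difference between the library sets called 0 genes with the share of reads outside genes as covariate, for a cause not tested. Summed Kupffer cell markers differed by 0.027 in libraries 31 to 59, endothelial markers by 0.029 in libraries 1 to 30 (adjusted p = 0.461, permutation test) and cholangiocyte markers by 0.093 in libraries 31 to 59 (adjusted p = 0.255, permutation test). Of the genes named, those that changed sign in an alternative had not passed in the main comparison, and their differences were as follows. With DESeq2, they were 0.0034 for Clec4f and 0.33 for Saa1. With the animal number as a line, they were 0.030 for Clec4f and -0.046 for Socs2. With edgeR, they were 0.0045 for Clec4f and 0.33 for Saa1. With the library position as covariate, they were -0.18 for Acly, -0.18 for Atp1b1, 0.16 for G6pc, 0.064 for Igfals, 0.11 for Ppara, -0.15 for Rcsd1 and -0.014 for Srebf1. In libraries 1 to 30, they were 0.095 for Dad1, -0.012 for Rcsd1, -0.0075 for Socs2 and 0.071 for Taldo1. In libraries 31 to 59, they were 0.080 for Clec4f, 0.073 for Ifit1, 0.17 for Leng8 and -0.069 for Tkt. Without covariate, it was 0.015 for Clec4f. With the share of reads outside genes as covariate, they were 0.021 for Clec4f and -0.015 for Tkt. When the share of the 10 highest genes was a covariate, they were 0.032 for Ppara and 0.088 for Saa1. Without libraries 10 and 55, it was 0.016 for Clec4f. Without the 4 libraries of repeated numbers, it was 0.015 for Clec4f. No paired analysis was possible because low- and high-numbered libraries share no replicate number. Depth limits genes near 1 normalized CPM, where the lowest values were a few reads.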
